A study of Homo sapiens with 60 samples.

Results

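The responses of one cell line to 2 herbal extracts were set against each other: a single herb, Schisandrae Fructus, and a decoction of several herbs, Yijin-tang. The comparison used 12 of the 60 libraries of the series, 3 for the high and 3 for the low dose of each extract, picked by their labels alone. The cells were SW1783, a human astrocytoma line (ATCC), kept in L-15, a medium with galactose in place of glucose, and exposed for 24 h. Schisandrae Fructus, extracted with 70% ethanol, was given at 310 µg/mL (high) and 12.4 µg/mL (low). Yijin-tang, extracted with hot water, was given at 500 µg/mL (high) and 20 µg/mL (low). The medium doses were 62 µg/mL of Schisandrae Fructus and 100 µg/mL of Yijin-tang, also with 3 libraries each. All groups carried dimethyl sulfoxide as the vehicle, which the labels give as 0.1% and the design text as another concentration.

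The high dose was 25 times the low dose in both extracts, but the doses themselves differ. The design text sets the high dose at 500 µg/mL, or at the IC20 (the concentration that inhibits the cells by 20%) for extracts whose IC20 lies below that. Between the extracts, herb, solvent, dose and library set (9 for Schisandrae Fructus and 8 for Yijin-tang, from the library names) cannot be told apart. Within each extract, both doses belong to one library set. The quantity compared is therefore the log2 fold change of the high over the low dose for Schisandrae Fructus minus the same for Yijin-tang, so that a factor that multiplies a gene's level in a whole library set drops out. This quantity is called the difference between the extracts, and a positive value means a higher response to Schisandrae Fructus.

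Schisandrae Fructus is the dried fruit of a magnolia vine and is known for its lignans. Yijin-tang is a classical decoction of East Asian medicine. Astrocytoma cells, like astrocytes, answer cytokines and microbial products through NF-kB, a transcription factor held inactive by inhibitor proteins that are themselves among its targets. They answer amino acid shortage and misfolded protein through ATF4 and the chaperones of the endoplasmic reticulum (ER), and sugar phosphates through MondoA, which pairs with MLX. Interferon-response genes encode sensors and blockers of viral RNA.

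Total counts were 29.66 to 32.57 M in the 3 Schisandrae Fructus high-dose libraries and 20.71 to 26.07 M in its low-dose libraries. They were 23.99 to 30.28 M in the Yijin-tang high-dose libraries and 20.95 to 28.06 M in its low-dose libraries. The deeper Schisandrae Fructus high-dose libraries lay beyond its low-dose libraries, and what part depth had in the results was not tested. The median SD of log2 levels between libraries was 0.109 and 0.0827 at the high and low dose of Schisandrae Fructus, and 0.0883 and 0.0809 for Yijin-tang. Of 14 astroglial and neural stem markers, GFAP (at most 0.302 CPM, counts per M counts of a library, with M for mega), AQP4 (0.0376), S100B (0.238), ALDH1L1 (0.0674), SOX2 (0.0475) and FABP7 (0.0388) were at or near 0 in all 12 libraries. SLC1A3 (10.7 to 28.9 CPM), SOX9 (43 to 75.6), GLUL (49.2 to 61.6), CD44 (1930 to 2740) and VIM (4220 to 5110) were present. NES (4.42 to 7.13 CPM) and NFIA (6.54 to 9.3 CPM) were present at lower levels, and SLC1A2 reached at most 0.287 CPM. The defining astrocyte markers GFAP, AQP4, S100B and ALDH1L1 were thus at or near 0. The filter on low counts was passed by 11 of 12 mesenchymal and fibroblast, 8 of 14 astroglial and neural stem and 9 of 12 neuronal markers. It was also passed by 6 of 10 epithelial, 5 of 10 oligodendrocyte, 5 of 10 endothelial and 4 of 10 microglia and macrophage markers. A gene can pass it at a low level, as SLC1A2 did.

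Of 17851 genes tested, 4269 (23.9%) differed between the extracts by edgeR's quasi-likelihood test at a Benjamini-Hochberg adjusted p below 0.05, the threshold for every call here. Of these, 2012 (11.3%) had the higher response to Schisandrae Fructus and 2257 (12.6%) the lower, and 210 and 423 of them differed at least 2-fold. On its own, the high dose of Schisandrae Fructus moved 8195 genes (45.9%), with 3976 up (22.3%) and 4219 down (23.6%). The high dose of Yijin-tang moved 1249 genes (7.00%), with 644 up (3.61%) and 605 down (3.39%). The median absolute log2 fold change over all genes tested was 0.265 for Schisandrae Fructus and 0.109 for Yijin-tang. Whether cultures behind the 3 libraries of a group were separate is not stated, so p-values measure the spread between libraries, which may be technical. In bulk RNA, fewer cells of a kind and less of a transcript per cell cannot be told apart.

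Both extracts moved 1016 genes, which is 12.4% of the Schisandrae Fructus calls and 81.3% of the Yijin-tang calls. Of these, 910 moved in the same direction, 409 up (2.29% of all genes tested) and 501 down (2.81%), and 106 moved in opposite directions. Of the 644 genes that rose with Yijin-tang, 409 rose and 77 fell with Schisandrae Fructus. Of the 605 that fell with Yijin-tang, 29 rose and 501 fell with Schisandrae Fructus. Across all 17851 genes the 2 sets of fold changes, which share no library, had a Pearson correlation of 0.227 and a Spearman correlation of 0.394. Genes are not independent replicates, so these describe the libraries only.

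**Figure D1:**
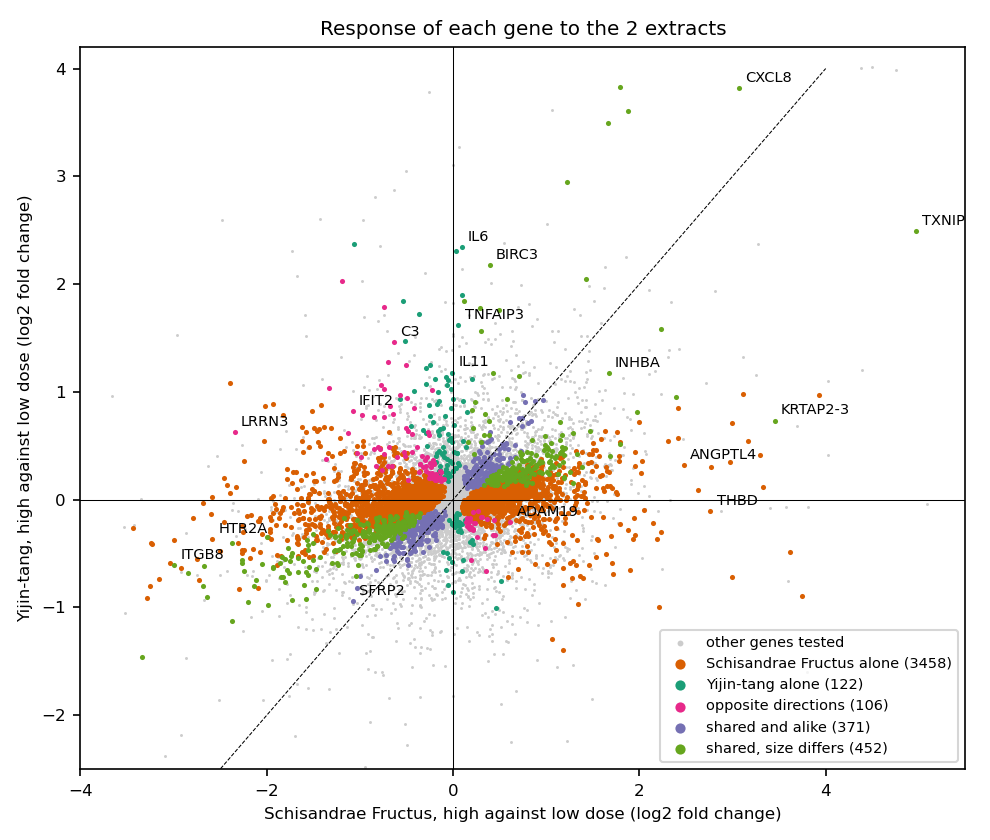
Log2 fold change of the high over the low dose for Schisandrae Fructus (horizontal axis) and Yijin-tang (vertical axis), 1 point per gene tested, coloured by class of response. The cloud is wider along the Schisandrae Fructus axis (median absolute value 0.265, against 0.109 for Yijin-tang), and the opposite class holds 77 genes in the upper left and 29 in the lower right. A further 66 genes lie outside the axes, 4 of them in a class.

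A call in one extract and none in the other does not show a difference, so genes were put in a class only where the difference between the extracts was tested as well. In 3458 genes the difference was called and, of the extracts, Schisandrae Fructus alone was called, 1695 up (9.50%) and 1763 down (9.88%). In 122 genes the same held for Yijin-tang, 84 up (0.471%) and 38 down (0.213%). Here alone means that the other extract was not called, which does not show that it left the gene unmoved. The other extract's 95% interval lay within 1.5-fold either way in 3101 of the 3458 genes and 101 of the 122. A further 452 genes moved the same way with a called difference in size, 211 up (1.18%) and 241 down (1.35%), and 428 of them moved further with Schisandrae Fructus. The 24 that moved further with Yijin-tang were all rises. In 371 genes, 166 up (0.930%) and 205 down (1.15%), both extracts moved the gene the same way and the 95% interval of the difference lay within 1.5-fold either way, which is called alike here. The 106 opposite genes comprised 77 lower (0.431%) and 29 higher (0.162%) with Schisandrae Fructus. For 3832 genes 1 extract was called but the difference was not, 3721 of them for Schisandrae Fructus and 111 for Yijin-tang. These are assigned to neither extract. Genes named below by class or list were picked only where high- and low-dose libraries did not overlap in each extract that called them. Their lack of overlap is thus a condition of naming and lends no support.

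**Figure D2:**
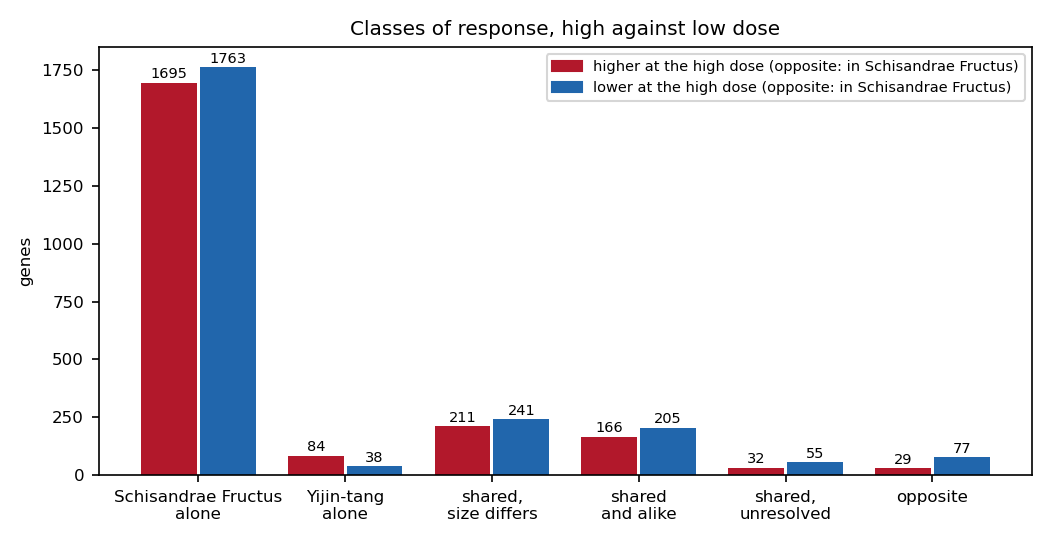
Number of genes in each class of response, split by direction, on a scale that starts at 0. Schisandrae Fructus alone is the largest class shown with 1695 rises and 1763 falls, against 84 rises and 38 falls for Yijin-tang alone.

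The largest response of Schisandrae Fructus in the genes named here was that of TXNIP, an arrestin-like protein that binds thioredoxin and limits glucose uptake (chr1:145992435-145996600, minus strand, GRCh38). TXNIP stood at 295, 276 and 289.5 CPM at the high dose of Schisandrae Fructus and 9.53, 9.25 and 8.59 CPM at its low dose. It stood at 44.8, 51.5 and 50.9 CPM at the high dose of Yijin-tang and 8.42, 8.47 and 9.31 CPM at its low dose. Neither pair of groups overlapped, and the low-dose levels of the extracts lay close together. TXNIP rose by a log2 fold change of 4.97 ± 0.076 with Schisandrae Fructus and 2.49 ± 0.075 with Yijin-tang (± is the standard error throughout), and the difference of 2.48 ± 0.11 was called (adjusted p = 1.70e-21). The medium-dose levels were 14.2, 12.8 and 15.2 CPM for Schisandrae Fructus and 10.2, 9.34 and 9.75 CPM for Yijin-tang, where the difference was 0.46 ± 0.12 (adjusted p = 0.627).

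TXNIP is the textbook target of MondoA, which binds a carbohydrate response element made of a pair of E-box-like boxes. TXNIP responded to both extracts at different size. Its RefSeq promoter (GRCh38.p14, chr1:145996580-145996829, minus strand) is shown because it holds a match to that element. It gives the 250 bases before the start site, and the capitals mark CACG and any base and G, repeated after 5 further bases, found on either strand; the match begins 88 bases before the start.
TXNIP: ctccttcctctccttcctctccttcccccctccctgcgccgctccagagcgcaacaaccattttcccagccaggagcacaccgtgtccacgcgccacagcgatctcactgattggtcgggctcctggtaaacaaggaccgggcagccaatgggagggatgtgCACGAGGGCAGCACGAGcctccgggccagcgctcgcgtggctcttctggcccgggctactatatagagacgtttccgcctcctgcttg
In the RefSeq set, 16 of 27305 promoters of this length (0.0586%) and 13 of 12011 genes tested (0.108%) hold this arrangement, and of 8 promoters of the MondoA sugar-response list 1 (12.5%) does. Such a match describes the letters and shows no binding. The promoter of ARRDC4, another gene of the MondoA list, was searched too and held no match.

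Of 9 genes of the MondoA list, 8 had a higher and 1 a lower response to Schisandrae Fructus, and the median difference was 0.69 against -0.0048 over all genes tested. Among all genes tested, 11.3% had a higher and 12.6% a lower response to Schisandrae Fructus. On its own Schisandrae Fructus raised 8 and lowered 1 (median 0.75), against 22.3% and 23.6% of all genes tested. Yijin-tang raised 2 of the list (median 0.062), against 3.61% of all genes tested. The second gene both raised was ARRDC4, an arrestin-domain relative of TXNIP, at 31.6, 28.1 and 28.6 CPM with high and 6.47, 5.23 and 5.05 CPM with low Schisandrae Fructus. With Yijin-tang it reached 11.2, 11.3 and 12.04 CPM at the high and 6.18, 6.09 and 5.59 CPM at the low dose, without overlap in either pair, and the difference was 1.44 ± 0.12 (adjusted p = 2.96e-12). The other members rose or fell with Schisandrae Fructus alone. HK2, the hexokinase that starts glycolysis in growing cells, rose by 0.75 ± 0.067 with Schisandrae Fructus, against 0.062 ± 0.068 with Yijin-tang (not called; difference adjusted p = 3.59e-07). PDK4, a kinase that holds back pyruvate oxidation, rose by 1.46 ± 0.23, and MLXIPL, which encodes the MondoA relative ChREBP, by 2.15 ± 0.45, both at low levels (2.26 and 0.92 CPM at the high dose of Schisandrae Fructus). MLX and MLXIP, which encode the MondoA complex, rose by 0.22 ± 0.050 and 0.28 ± 0.078. ARRDC3 was the member that fell (-0.47 ± 0.072), and it was called as a fall with Yijin-tang too with the replicate block (-0.185) and in a fit of only the 12 libraries (-0.18). Without Yijin-tang low-dose replicate 1, 5 of the 9 differences were called. The difference of MLX was not called without Yijin-tang high-dose replicate 1 or low-dose replicate 3 (0.201 and 0.204), nor that of PDK4 without Schisandrae Fructus low-dose replicate 2 or Yijin-tang low-dose replicate 1 (0.944 and 0.943), nor that of MLXIPL without Yijin-tang low-dose replicate 3 (2.12). Those of ARRDC3 (-0.239 to -0.284) and MLXIP (0.279 to 0.319) were lost in 6 and 8 of the 12 fits that left out 1 library. Without the filter on low counts the differences of MLX (0.233) and PDK4 (1.05) were not called.

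**Figure D3:**
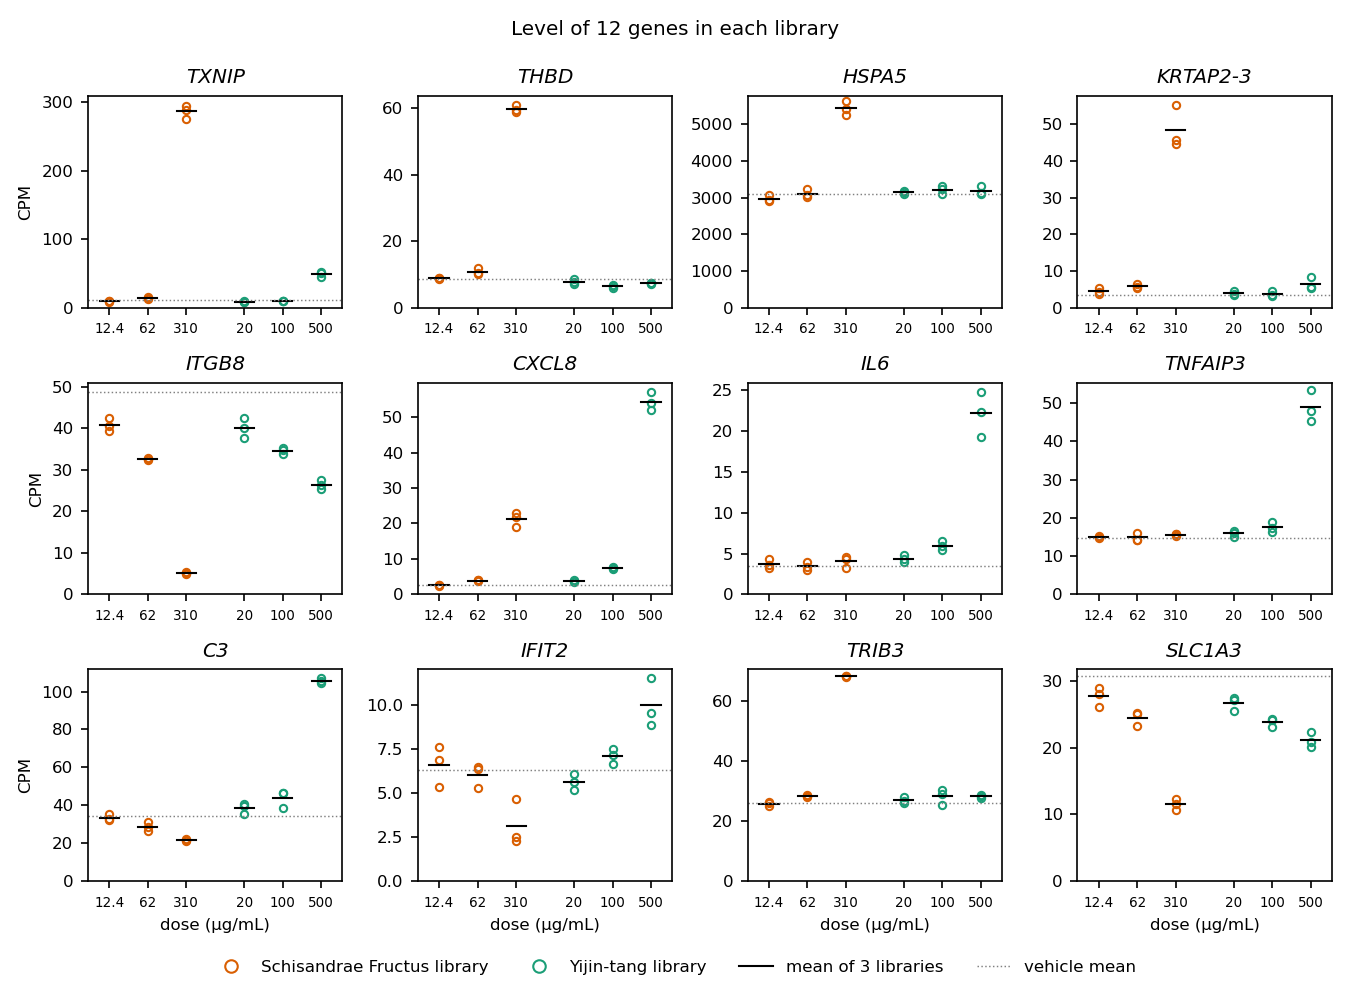
Levels of 12 genes in CPM at the low, medium and high dose, 1 point per library, for Schisandrae Fructus and Yijin-tang; the dotted line is the mean of the 3 vehicle libraries. TXNIP, THBD, HSPA5, KRTAP2-3 and TRIB3 are highest at the high dose of Schisandrae Fructus, while CXCL8, IL6, TNFAIP3, C3 and IFIT2 are highest at the high dose of Yijin-tang, and ITGB8 and SLC1A3 are lowest at the high dose of Schisandrae Fructus.

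The NF-kB and cytokine genes lay on the Yijin-tang side. Of 35 members tested, 2 had a higher and 24 a lower response to Schisandrae Fructus, with a median difference of -0.75. Over all genes tested, 11.3% were higher and 12.6% lower. Schisandrae Fructus raised 22 and lowered 5 of the members (median 0.36), against 22.3% and 23.6% of all genes tested. Yijin-tang raised 32 and lowered none (median 1.18), against the 3.61% of all genes that Yijin-tang raised. The summed level of the list was 1020 to 1030 CPM at the high and 795 to 813 CPM at the low dose of Schisandrae Fructus. It was 1550 to 1650 CPM at the high and 800 to 834 CPM at the low dose of Yijin-tang. Both extracts raised 21 of the members, 4 rose with Yijin-tang alone, 1 with Schisandrae Fructus alone and 5 moved in opposite directions.

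The promoters of a pair of ligands are shown because they answered the extracts differently: IL6 (GRCh38.p14, chr7:22726950-22727199, plus strand) rose with Yijin-tang alone, and CXCL8 (chr4:73740319-73740568, plus strand) rose with both. Each gives the 250 bases before the RefSeq start, with capitals for an NF-kB site of the letters GGANTTTCC, searched on both strands. It begins 72 bases before the start of IL6 and 91 bases before that of CXCL8.
IL6: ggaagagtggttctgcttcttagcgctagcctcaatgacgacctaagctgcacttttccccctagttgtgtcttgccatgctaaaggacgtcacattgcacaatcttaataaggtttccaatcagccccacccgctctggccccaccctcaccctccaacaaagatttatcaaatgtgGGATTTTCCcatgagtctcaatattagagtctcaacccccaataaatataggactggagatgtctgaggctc
CXCL8: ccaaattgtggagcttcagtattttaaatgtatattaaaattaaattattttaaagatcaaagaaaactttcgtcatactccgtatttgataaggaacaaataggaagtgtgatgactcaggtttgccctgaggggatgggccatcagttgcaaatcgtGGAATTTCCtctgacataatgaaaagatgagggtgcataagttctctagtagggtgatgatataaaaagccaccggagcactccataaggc
The site stands in 401 of 27305 RefSeq promoters (1.47%) and in 176 of 12011 genes tested (1.47%). Of the 26 NF-kB and cytokine genes with a RefSeq promoter, 12 hold it (46.2%). In the class of IL6, rises with Yijin-tang alone, 3 of 57 hold it (5.26%). In that of CXCL8, rises with both extracts that differ in size, 11 of 159 hold it (6.92%). The site stands in 8 of 54 genes that fell with Schisandrae Fructus and rose with Yijin-tang (14.8%). It stands in 21 of 1318 genes that rose with Schisandrae Fructus alone (1.59%). It does not set apart the 2 promoters printed here.

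Among the ligands, IL6, a cytokine of the acute-phase response, had 4.31, 3.23 and 4.58 CPM at the high and 4.38, 3.65 and 3.26 CPM at the low dose of Schisandrae Fructus, which overlapped. With Yijin-tang it had 24.9, 22.4 and 19.3 CPM at the high and 4.85, 3.97 and 4.32 CPM at the low dose, well apart. IL6 rose by 2.35 ± 0.12 with Yijin-tang; the Schisandrae Fructus value was 0.093 ± 0.14 (95% interval -0.19 to 0.38, not called) and the difference -2.25 ± 0.19 (adjusted p = 1.97e-12). CXCL8, which attracts neutrophils, had 21.7, 18.9 and 22.9 CPM at high and 2.56, 2.56 and 2.45 CPM at low Schisandrae Fructus. It had 52.1, 57.1 and 54.1 CPM at high and 3.57, 3.86 and 4.09 CPM at low Yijin-tang, so both high-dose groups stood clear of their low-dose groups. CXCL8 rose by 3.06 ± 0.12 with Schisandrae Fructus and 3.82 ± 0.10 with Yijin-tang, with a difference of -0.75 ± 0.17 (adjusted p = 0.000712). IL1B, an early inflammatory cytokine, went the other way, with 19.6, 20.1 and 19.3 CPM at high and 4.57, 4.03 and 3.96 CPM at low Schisandrae Fructus. With Yijin-tang it had 11.6, 13.1 and 11.2 CPM at the high and 4.18, 4.39 and 3.34 CPM at the low dose. Both groups rose and the rise was larger with Schisandrae Fructus (difference 0.64 ± 0.15, adjusted p = 0.000906).

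The related neutrophil chemokines CXCL1, CXCL2 and CXCL3 rose with both extracts and further with Yijin-tang, with differences of -2.04 ± 0.67, -1.73 ± 0.37 and -1.84 ± 0.46. Their sequences are close and RSEM shares reads between them, so their separate values are uncertain. The difference of CXCL1 was not called without Schisandrae Fructus low-dose replicate 1 or 3 (-2.08 and -1.95) or Yijin-tang low-dose replicate 1 (-1.71). CSF3, a growth factor of neutrophils, did the same (-1.73 ± 0.41; 1.36 CPM at the high dose of Schisandrae Fructus and 5.82 CPM at that of Yijin-tang). IL11, a cytokine of the IL6 family, rose with Yijin-tang alone, at 179, 180.0 and 166 CPM at high and 73.6, 80.5 and 77.9 CPM at low Yijin-tang (1.18 ± 0.063). LIF, another member of that family, rose alike: 0.77 ± 0.072 with Schisandrae Fructus and 0.91 ± 0.071 with Yijin-tang, with a 95% interval of the difference of -0.34 to 0.069. CCL5 rose with Yijin-tang alone (1.08 ± 0.27). CCL2, a monocyte attractant, fell with Schisandrae Fructus (-0.74 ± 0.12) and rose with Yijin-tang (1.03 ± 0.11).

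Among the inhibitors and survival factors induced by NF-kB, TNFAIP3 encodes A20, an enzyme that shuts NF-kB signalling off, and had 15.2, 15.8 and 15.7 CPM at high and 15.0, 14.6 and 15.3 CPM at low Schisandrae Fructus. It had 53.4, 45.4 and 47.9 CPM at high and 16.1, 16.5 and 15.1 CPM at low Yijin-tang, so that it stood apart with Yijin-tang alone (difference -1.56 ± 0.12, adjusted p = 8.36e-14). BIRC3, which binds TNF receptor complexes and blocks cell death, rose with both, by 0.39 ± 0.096 with Schisandrae Fructus and 2.18 ± 0.088 with Yijin-tang. NFKBIA, the inhibitor IkB-alpha, fell by 0.23 on the log2 scale with Schisandrae Fructus (adjusted p = 0.043) and rose by 1.02 ± 0.090 with Yijin-tang. The subunits differed: NFKB1 fell with Schisandrae Fructus (-0.22 ± 0.078) and rose with Yijin-tang (0.37 ± 0.076), RELB rose with both (0.43 ± 0.091 and 1.18 ± 0.087), and RELA rose with Schisandrae Fructus (0.34 ± 0.058; difference adjusted p = 0.0229). Some of these calls did not hold without 1 library. The Schisandrae Fructus call of NFKBIA was lost without any 1 of its 6 libraries (-0.209 to -0.241) and with DESeq2's size factors (-0.22), that of NFKB1 without high-dose replicate 2 or low-dose replicate 1 or 3 (-0.168 to -0.197) or the filter on low counts (-0.202), and the difference of RELA in 5 of the 12 fits (0.19 to 0.228) and without the filter on low counts (0.254). ICAM1, the adhesion molecule for leukocytes, had 49.7, 52.8 and 54.4 CPM at high and 42.4, 40.8 and 45.1 CPM at low Schisandrae Fructus. It had 155, 156 and 160.2 CPM at high and 43.8, 48.2 and 45.1 CPM at low Yijin-tang, no pair overlapping, with a difference of -1.49 ± 0.080 (adjusted p = 2.24e-18). PTGS2, the inducible cyclooxygenase, rose with both by 1.11 ± 0.096 and 0.78 ± 0.096, and the 95% interval of its difference, 0.056 to 0.60, left its class unresolved; the difference was called without Yijin-tang high-dose replicate 1 (0.386), without the filter on low counts (0.336), with the replicate block (0.328) and in a fit of only the 12 libraries (0.33).

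The complement gene C3 was opposite. It had 20.9, 21.9 and 21.8 CPM at high and 32.4, 32.8 and 35.1 CPM at low Schisandrae Fructus, and fell by 0.63 on the log2 scale. It had 105, 104 and 107 CPM at high and 40.5, 39.5 and 35.3 CPM at low Yijin-tang and rose by 1.46 ± 0.11, for a difference of -2.10 ± 0.16 (adjusted p = 9.25e-14). No high-dose library overlapped its low-dose group. CFB, the complement factor that works with C3, rose with Yijin-tang alone (1.14 ± 0.10; Schisandrae Fructus -0.075 ± 0.11, not called). TNFAIP2 fell with Schisandrae Fructus (-0.42 ± 0.044) and rose with Yijin-tang (0.85 ± 0.042).

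**Figure D4:**
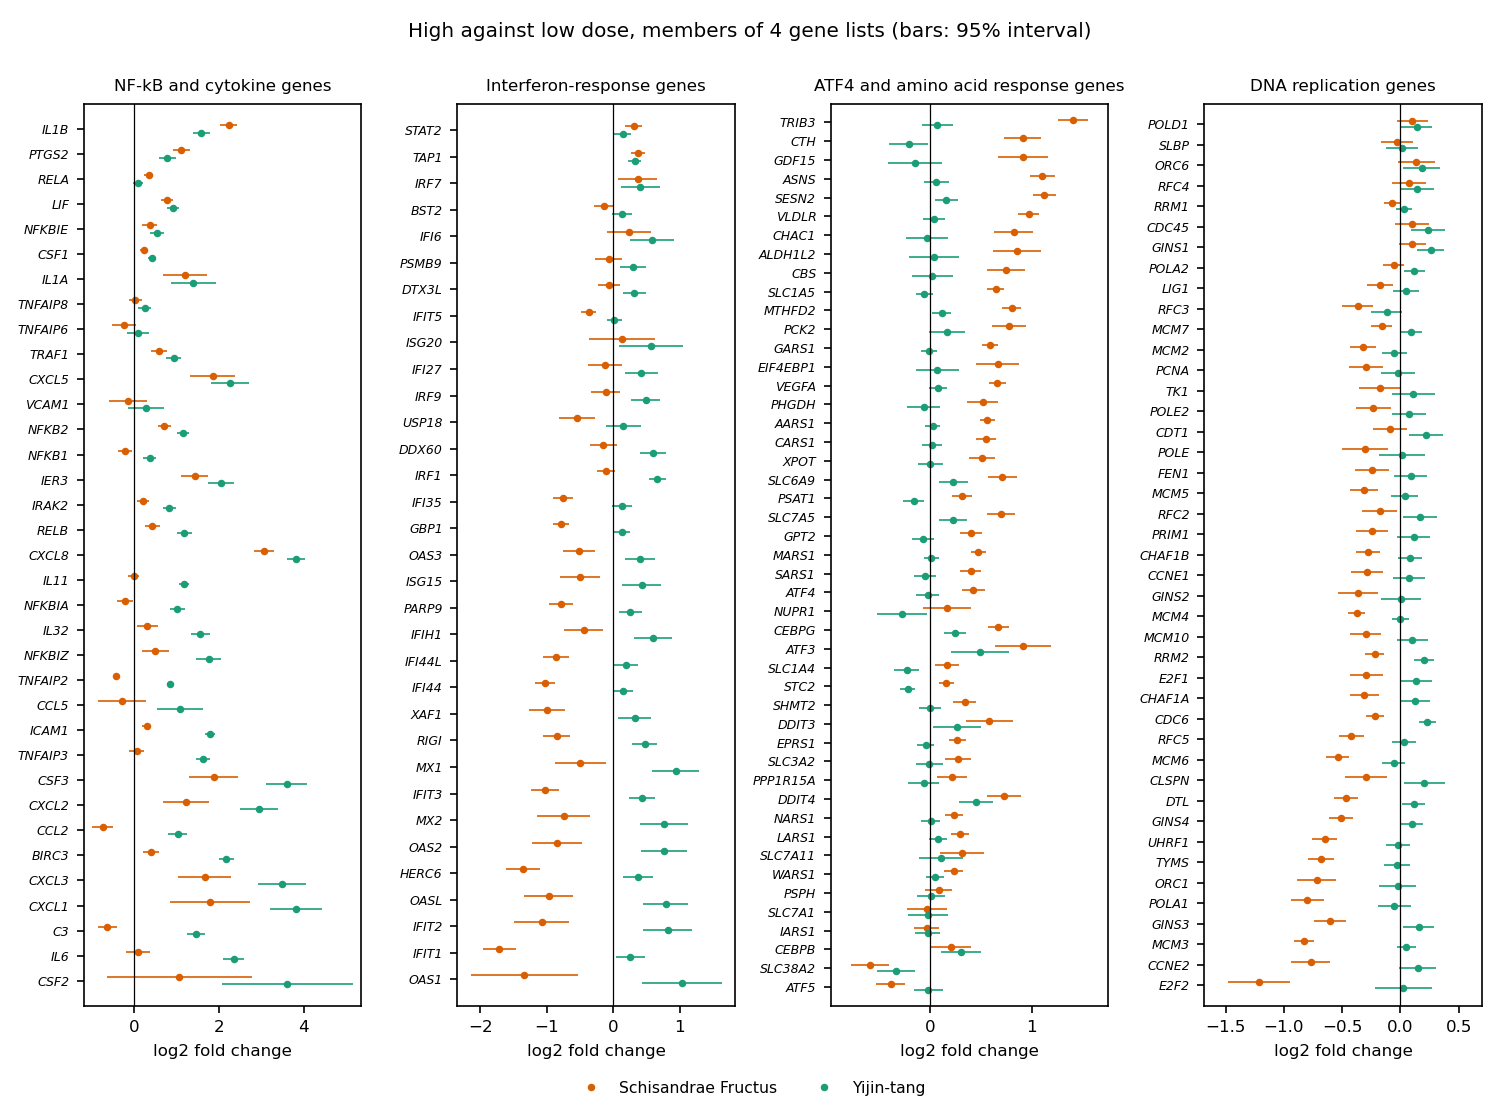
Log2 fold changes of the high over the low dose, with 95% intervals, for members of 4 gene lists; each member has a Schisandrae Fructus and a Yijin-tang point. In the NF-kB and cytokine list 24 of 35 members lie lower with Schisandrae Fructus than with Yijin-tang with a called difference.

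Interferon-response genes moved apart in both directions. Of 34 tested, none had a called higher and 27 a called lower response to Schisandrae Fructus (median difference -0.92). Over all genes tested these shares were 11.3% and 12.6%. Schisandrae Fructus raised 3 and lowered 21 (median -0.51), against 22.3% and 23.6% of all genes tested. Yijin-tang raised 18 and lowered none (median 0.41), against 3.61% and 3.39%. Of the members, 11 were opposite, 10 fell with Schisandrae Fructus alone and 5 rose with Yijin-tang alone. The 18 calls with Yijin-tang were 12 to 17 when 1 of its libraries was left out. The summed level was 565 to 588 CPM at high and 662 to 681 CPM at low Schisandrae Fructus, and 810 to 883 CPM at high and 651 to 678 CPM at low Yijin-tang.

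IFIT1, which binds viral RNA that lacks the host cap, had 3.40, 3.05 and 3.89 CPM at high and 11.6, 11.2 and 11.1 CPM at low Schisandrae Fructus. Yijin-tang gave 14.1, 10.6 and 11.1 CPM at high and 8.89, 10.5 and 10.3 CPM at low dose. IFIT1 fell with Schisandrae Fructus alone (-1.72 ± 0.12; Yijin-tang 0.26 ± 0.11, adjusted p = 0.176; difference -1.97 ± 0.17, adjusted p = 1.67e-12). Its RefSeq promoter (GRCh38.p14, chr10:89392373-89392622, plus strand) is shown as that of a gene low at the high dose of Schisandrae Fructus. Capitals mark an interferon-stimulated response element, GAAA and any 2 bases and GAAA, searched on both strands and found here on the minus strand, from 116 and 103 bases before the start, without overlap.
IFIT1: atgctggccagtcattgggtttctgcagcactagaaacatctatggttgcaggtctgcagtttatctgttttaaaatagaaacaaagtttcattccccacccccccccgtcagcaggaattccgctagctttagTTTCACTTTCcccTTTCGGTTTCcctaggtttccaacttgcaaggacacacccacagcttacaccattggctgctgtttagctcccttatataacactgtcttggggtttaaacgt
The element stands in 839 of 27305 promoters (3.07%) and in 15 of 27 interferon-response genes (55.6%). It stands in 9 of 57 genes that rose with Yijin-tang alone (15.8%) and in 39 of 1356 that fell with Schisandrae Fructus alone (2.88%). Among the genes tested, 294 of 12011 hold it (2.45%). The promoter of OAS1, searched as well, held no match.

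IFIT2, a relative of IFIT1, was opposite, with 2.49, 2.26 and 4.68 CPM at high and 6.86, 7.60 and 5.33 CPM at low Schisandrae Fructus. It had 11.6, 8.87 and 9.55 CPM at high and 5.18, 6.06 and 5.63 CPM at low Yijin-tang. The high-dose libraries lay below their low-dose group with Schisandrae Fructus and above it with Yijin-tang, and the difference was -1.90 ± 0.28 (adjusted p = 1.09e-06). Of the enzymes that make the RNase L activator, OAS1, OAS2 and OAS3 were all opposite, at -1.34 ± 0.40, -0.85 ± 0.19 and -0.52 ± 0.12 with Schisandrae Fructus and 1.04 ± 0.30, 0.76 ± 0.17 and 0.40 ± 0.12 with Yijin-tang, and so was their relative OASL (-0.97 ± 0.18 and 0.79 ± 0.16). The RNA sensors RIGI (-0.85 ± 0.10 and 0.47 ± 0.093) and IFIH1 (-0.44 ± 0.15 and 0.60 ± 0.14) were opposite as well. So were the GTPases MX1 (-0.50 ± 0.19 and 0.94 ± 0.18) and MX2 (-0.74 ± 0.20 and 0.77 ± 0.18), which block viral entry and replication. Some of these calls in 1 of the extracts were lost without single libraries: OAS1 with Yijin-tang without high-dose replicate 1 or low-dose replicate 1 or 2 (0.725 to 1.06), and OAS3 with Yijin-tang without high-dose replicate 1 or 3 or low-dose replicate 2 or 3 (0.353 to 0.42). MX2 lost its Yijin-tang call without high-dose replicate 1 (0.615), IFIH1 its Schisandrae Fructus call without low-dose replicate 1 (-0.333), and MX1 its Schisandrae Fructus call without high-dose replicate 1 or 2 or low-dose replicate 1 or 3 (-0.456 to -0.512). The transcription factors of the pathway did not follow one pattern. IRF1 and IRF9 rose with Yijin-tang alone (0.67 ± 0.065 and 0.49 ± 0.11), and STAT2 rose with Schisandrae Fructus (0.31 ± 0.063) without a called difference. TAP1, a peptide transporter for antigen presentation, rose alike (0.37 ± 0.050 and 0.32 ± 0.050).

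Amino acid and ER stress genes lay on the Schisandrae Fructus side. Of 47 genes of the ATF4 and amino acid response, 36 had a higher and 1 a lower response to Schisandrae Fructus, with a median difference of 0.46. The shares over all genes tested were 11.3% and 12.6%. Schisandrae Fructus raised 40 and lowered 2 (median 0.52), against 22.3% and 23.6% of all genes tested. Yijin-tang raised 5 and lowered 4 (median 0.010), against 3.61% and 3.39%. These 9 calls were 5 without Yijin-tang high-dose replicate 1 or 2 or low-dose replicate 3, and 3 without its low-dose replicate 1. Of the 47, 29 rose with Schisandrae Fructus alone. TRIB3, a pseudokinase induced by ATF4, had 67.9, 68.2 and 68.3 CPM at high and 26.0, 26.3 and 24.9 CPM at low Schisandrae Fructus. With Yijin-tang it had 28.4, 28.6 and 27.7 CPM at high and 26.0, 26.6 and 27.9 CPM at low dose. The high dose stood apart with Schisandrae Fructus only, and the difference was 1.33 ± 0.11 (adjusted p = 4.70e-13).

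ASNS, asparagine synthetase, and HSPA5, the chief ER chaperone BiP, carry the best known elements of these responses, and their RefSeq promoters are shown for that reason. For ASNS (GRCh38.p14, chr7:97872409-97872658, minus strand) the capitals mark an ATF4 element, TGATGNAA, 68 bases before the start. For HSPA5 (chr9:125241344-125241593, minus strand) they mark an ER stress element, CCAAT and 9 further bases and CCACG, 66 bases before the start. Both strands were searched.
ASNS: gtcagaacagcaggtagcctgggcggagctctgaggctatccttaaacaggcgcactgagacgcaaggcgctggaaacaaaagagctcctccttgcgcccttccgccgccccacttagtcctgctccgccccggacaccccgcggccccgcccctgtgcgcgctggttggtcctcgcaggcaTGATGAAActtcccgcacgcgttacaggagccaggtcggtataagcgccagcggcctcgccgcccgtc
HSPA5: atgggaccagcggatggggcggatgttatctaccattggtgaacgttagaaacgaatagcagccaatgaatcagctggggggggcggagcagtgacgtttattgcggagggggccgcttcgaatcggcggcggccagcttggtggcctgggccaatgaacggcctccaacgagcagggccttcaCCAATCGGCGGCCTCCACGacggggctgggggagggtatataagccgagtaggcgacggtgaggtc
The ATF4 element stands in 870 of 27305 promoters (3.19%), in 172 of 12011 genes tested (1.43%) and in 5 of 38 genes of the ATF4 list (13.2%). The ER stress element stands in 22 promoters (0.0806%), in 14 genes tested (0.117%) and in 7 of 26 genes of the ER chaperone list (26.9%). The promoter of TRIB3, searched for the ATF4 element, held no match.

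ASNS rose with Schisandrae Fructus alone, at 115, 112 and 109.8 CPM at high and 53.5, 52.1 and 50.9 CPM at low dose (1.10 ± 0.060). With Yijin-tang it had 60.7, 59.0 and 54.7 CPM at high and 55.5, 54.05 and 57.7 CPM at low dose (0.059 ± 0.060, not called), and the difference was 1.05 ± 0.085 (adjusted p = 6.29e-13). Other enzymes of serine, glycine and sulfur amino acid metabolism did the same, with differences of 1.12 ± 0.13 for CTH, 0.69 ± 0.066 for MTHFD2 and 0.58 ± 0.11 for PHGDH, as did the glutathione-degrading enzyme CHAC1 (0.85 ± 0.14), the stress cytokine GDF15 (1.06 ± 0.18) and the leucine sensor SESN2 (0.96 ± 0.081). SESN2 was called with Yijin-tang as well without Yijin-tang high-dose replicate 3 (0.226, against 0.16 ± 0.058 with it). ATF4 itself rose with Schisandrae Fructus alone (0.43 ± 0.056; difference 0.45 ± 0.079). DDIT3, a transcription factor of prolonged stress, rose with Schisandrae Fructus (0.58 ± 0.11), but its difference of 0.32 ± 0.16 was not called (adjusted p = 0.161), though it was in a fit of only the 12 libraries (0.32) and without the filter on low counts (0.325). PSAT1, SLC1A4 and STC2 rose with Schisandrae Fructus (0.32 ± 0.050, 0.16 ± 0.058 and 0.16 ± 0.036) and fell with Yijin-tang (-0.16 ± 0.050, -0.23 ± 0.060 and -0.22 ± 0.036). The Yijin-tang call of PSAT1 was lost without high-dose replicate 1 or 3 or any 1 of the low-dose libraries (-0.127 to -0.171), in a fit of only the 12 libraries (-0.158) and without the filter on low counts (-0.151). That of SLC1A4 was lost without high-dose replicate 3 or low-dose replicate 1 (-0.168 and -0.205). The Schisandrae Fructus call of SLC1A4 was lost without high-dose replicate 1 or low-dose replicate 3 (0.105 and 0.157). Without the filter neither SLC1A4 call held (0.18 with Schisandrae Fructus and -0.22 with Yijin-tang). ATF5 was the member lower with Schisandrae Fructus (-0.39 ± 0.071, difference -0.37 ± 0.10). DDIT4, an inhibitor of mTORC1, rose alike (0.73 ± 0.083 and 0.45 ± 0.083), though its difference was called without Yijin-tang low-dose replicate 1 (0.337), with the replicate block (0.274), without the filter on low counts (0.283) and in a fit of only the 12 libraries (0.279).

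Of 29 ER chaperone and folding genes, 14 had a higher and 1 a lower response to Schisandrae Fructus (median difference 0.23). Among all genes tested, 11.3% were higher and 12.6% lower. Schisandrae Fructus raised 22 and lowered 2, against 22.3% and 23.6% of all genes tested. Yijin-tang raised 3 (1 without Yijin-tang low-dose replicate 2), against 3.61% of all genes tested. HSPA5 had 5246, 5423 and 5634 CPM at high and 3059, 2926 and 2903 CPM at low Schisandrae Fructus. It had 3108, 3125 and 3327 CPM at high and 3177, 3094 and 3160 CPM at low Yijin-tang, and was higher with Schisandrae Fructus alone (difference 0.86 ± 0.055, adjusted p = 5.22e-16). The disulfide isomerase PDIA4 (0.75 ± 0.053) and the chaperone HSP90B1 (0.70 ± 0.054) followed it. The ER stress sensor ERN1 rose with both, further with Schisandrae Fructus (0.73 ± 0.063 and 0.38 ± 0.066). Of 25 heat shock genes 12 were higher and 2 lower with Schisandrae Fructus (median difference 0.19). Schisandrae Fructus raised 15 and lowered 3, against the same 22.3% and 23.6%. Yijin-tang lowered 3 (1 without the filter on low counts), against 3.39% of all genes tested. HSPA1A rose by 0.49 ± 0.047 with Schisandrae Fructus alone; it is nearly identical to HSPA1B, which rose by 0.43 ± 0.096 without a called difference, so how reads were split between them is uncertain. The small heat shock genes HSPB1 (-0.68 ± 0.11) and HSPB8 (-0.92 ± 0.069) fell with Schisandrae Fructus. HSPB8 was called as a fall with Yijin-tang too. That call was lost without Yijin-tang high-dose replicate 3 (-0.14) or low-dose replicate 2 (-0.196) or 3 (-0.206). It was also lost in a fit of only the 12 libraries (-0.219) and without the filter on low counts (-0.211).

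Genes of DNA replication were lower with Schisandrae Fructus. Of 44 tested, none was higher and 35 were lower relative to Yijin-tang, with a median difference of -0.36. Over all genes tested, 11.3% were higher and 12.6% lower. Schisandrae Fructus lowered 34 and raised none (median -0.29), against 23.6% lowered and 22.3% raised of all genes tested. Yijin-tang raised 4 and lowered none (median 0.084), against 3.61% and 3.39%. MCM3, a subunit of the replicative helicase, had 62.7, 68.5 and 68.7 CPM at high and 120.2, 115 and 119 CPM at low Schisandrae Fructus. Yijin-tang gave 122, 124 and 126 CPM at high and 117, 121 and 122 CPM at low dose, the lowest of the high-dose libraries lying just above the highest of the low-dose ones. MCM3 fell by 0.83 on the log2 scale with Schisandrae Fructus (Yijin-tang 0.051 ± 0.041, not called; difference adjusted p = 1.75e-15) and MCM6, another subunit, by 0.54. TYMS (-0.68 ± 0.056), the polymerase subunit POLA1 (-0.80 ± 0.071), the cyclin CCNE2 (-0.77 ± 0.083) and the transcription factor E2F2 (-1.21 ± 0.13) fell with Schisandrae Fructus alone. The licensing factor CDC6 and the ribonucleotide reductase subunit RRM2 were opposite, at -0.22 ± 0.037 and -0.22 ± 0.042 with Schisandrae Fructus and 0.23 ± 0.037 and 0.20 ± 0.042 with Yijin-tang.

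Replication genes are classic targets of E2F factors, and the RefSeq promoter of MCM6 (GRCh38.p14, chr2:135876444-135876693, minus strand) is shown because it holds 4 matches to an E2F site of the letters TTTNGCGC, in capitals. They begin 152 and 90 bases before the start on the plus strand and 148 and 86 bases before it on the minus strand, and each plus-strand match overlaps a minus-strand one.
MCM6: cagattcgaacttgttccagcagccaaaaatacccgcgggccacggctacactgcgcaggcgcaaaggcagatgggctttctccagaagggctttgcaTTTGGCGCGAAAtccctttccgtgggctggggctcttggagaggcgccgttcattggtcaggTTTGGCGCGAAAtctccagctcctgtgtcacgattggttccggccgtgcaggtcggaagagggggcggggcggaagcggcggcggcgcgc
The site stands in 420 of 27305 promoters (1.54%), in 11 of 39 replication genes (28.2%) and in 37 of 1356 genes that fell with Schisandrae Fructus alone (2.73%). Among the genes tested with a RefSeq promoter, 290 of 12011 hold it (2.41%), which is close to that last share. The promoter of MCM3 was searched for the same site and held no match.

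Genes of mitosis did not follow the replication genes. Of 43, 10 had a higher and 2 a lower response to Schisandrae Fructus (median difference 0.10). The shares over all genes tested were 11.3% and 12.6%. On its own, Schisandrae Fructus raised 22.3% and lowered 23.6% of all genes tested. Schisandrae Fructus raised 28 and lowered 3, and Yijin-tang raised 9, all of which Schisandrae Fructus raised too, 6 of them alike. Yijin-tang raised 3.61% of all genes tested. Of the 9, 5 were called without Yijin-tang low-dose replicate 1 and 2 without Yijin-tang high-dose replicate 3. The kinesin KIF2C rose by 0.49 ± 0.037 with Schisandrae Fructus and 0.22 ± 0.037 with Yijin-tang, and the topoisomerase TOP2A rose alike (0.17 ± 0.047 and 0.18 ± 0.047), though its Yijin-tang call was lost without high-dose replicate 3 (0.105) and without the filter on low counts (0.188). MKI67, the proliferation marker, stood at 295, 292 and 233 CPM at high and 254, 268 and 293 CPM at low Schisandrae Fructus. It stood at 298, 277 and 319 CPM at high and 289.8, 285 and 259.7 CPM at low Yijin-tang, and neither extract was called (difference -0.088 ± 0.26, 95% interval -0.60 to 0.43). CDKN1A, an inhibitor of cell cycle kinases, was not called either (difference -0.032 ± 0.12, 95% interval -0.28 to 0.22).

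**Figure D5:**
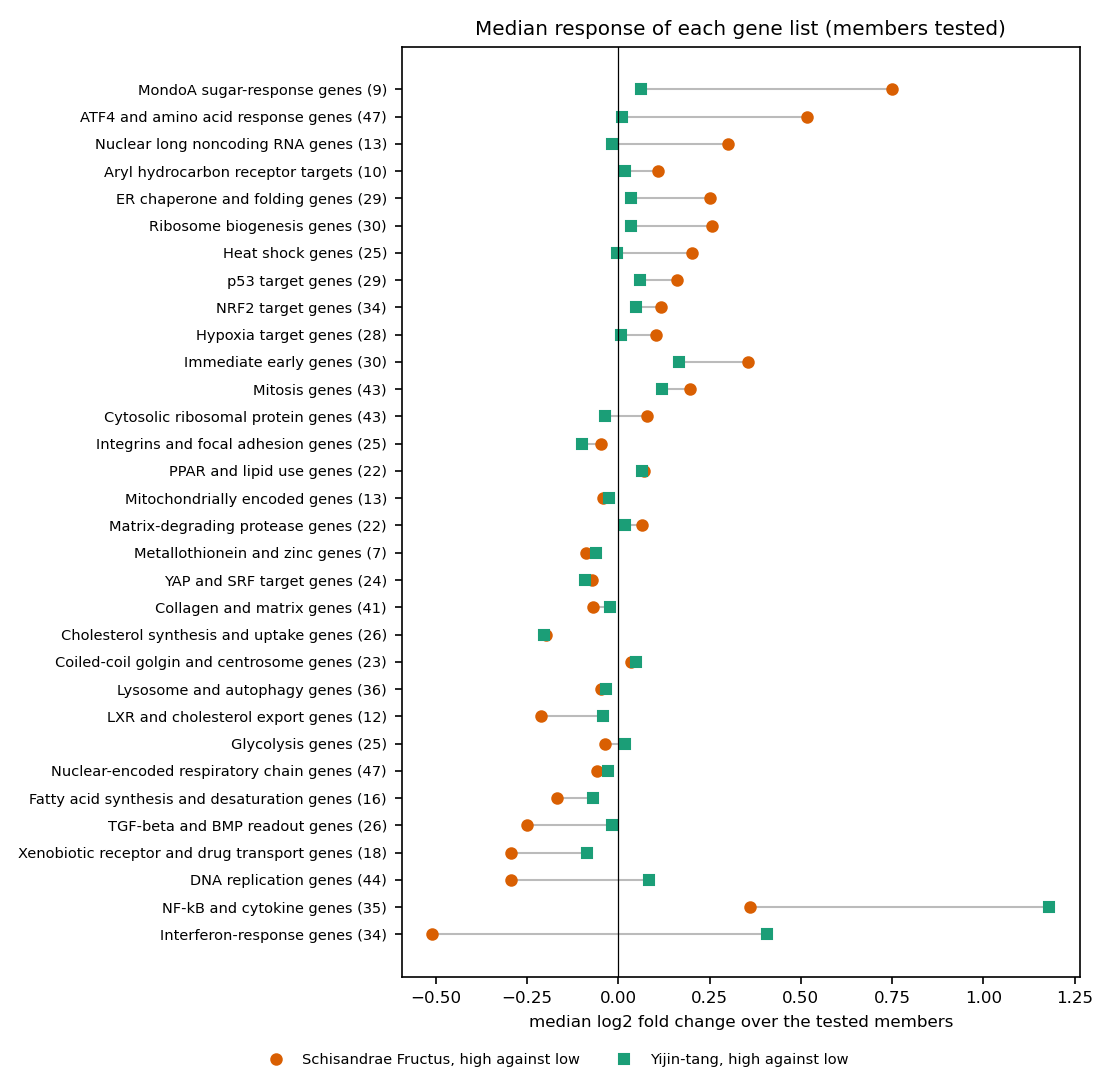
Median log2 fold change of the high over the low dose per gene list for Schisandrae Fructus and Yijin-tang. The medians of the NF-kB and cytokine list are 0.36 for Schisandrae Fructus and 1.18 for Yijin-tang, those of the interferon list -0.51 and 0.41, and those of the ATF4 list 0.52 and 0.010.

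Beyond these groups, the largest rises with Schisandrae Fructus alone were led by THBD, thrombomodulin, a thrombin receptor that restrains clotting (chr20:23045633-23049741, minus strand, GRCh38). THBD had 60.96, 59.5 and 58.7 CPM at high and 8.60, 8.99 and 8.78 CPM at low Schisandrae Fructus. It had 7.00, 7.47 and 7.38 CPM at high and 7.13, 7.79 and 8.48 CPM at low Yijin-tang, which overlapped. It rose by 2.76 ± 0.062 with Schisandrae Fructus, against -0.10 ± 0.073 with Yijin-tang (95% interval -0.25 to 0.043, not called), for a difference of 2.87 ± 0.095 (adjusted p = 1.94e-25). ANGPTL4, a secreted inhibitor of lipoprotein lipase, rose by 2.48 ± 0.095, against 0.32 ± 0.11 with Yijin-tang, a value that was called without Yijin-tang high-dose replicate 3 (0.417) or without the filter on low counts (0.328). ADM2 (1.75 ± 0.10), a peptide of the calcitonin family, ZP3 (1.41 ± 0.14), a glycoprotein known from the egg coat, the serotonin receptor HTR1D (1.44 ± 0.13) and the neuronal pentraxin NPTX1 (1.34 ± 0.11) completed the 6 largest. Their Yijin-tang values lay between -0.12 and 0.073, none of them called.

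The largest falls with Schisandrae Fructus alone included HTR2A, another serotonin receptor, at 1.04, 0.815 and 1.23 CPM at high and 5.62, 6.02 and 7.03 CPM at low Schisandrae Fructus. It had 4.92, 4.64 and 4.57 CPM at high and 6.51, 5.67 and 6.08 CPM at low Yijin-tang. Its response was -2.59 ± 0.16 with Schisandrae Fructus and -0.37 ± 0.13 with Yijin-tang (adjusted p = 0.0835, and 0.0439 with the replicate block, which calls it in both extracts). The transcription factor SP8 (-2.21 ± 0.085), the phosphatase CD45 gene PTPRC (-2.25 ± 0.15), the cyclic AMP phosphodiesterase PDE7B (-1.80 ± 0.084) and the stromal glycoprotein CD248 (-1.85 ± 0.18) fell as well, with differences of -2.06 ± 0.11, -1.96 ± 0.20, -1.82 ± 0.11 and -1.73 ± 0.23. PTPRC is a marker of blood cells, yet of the 10 microglia and macrophage markers TREM2 and TYROBP were at 0 in all 12 libraries and 4 passed the filter on low counts. The summed level of that list was 254 to 264 CPM at high and 209 to 219 CPM at low Schisandrae Fructus. With Yijin-tang it was 230 to 254 CPM at high and 215 to 227 CPM at low dose. CD68 (196 to 261 CPM over the 12 libraries) made up most of this sum, which therefore does not describe the list. Of the 4 members tested, Schisandrae Fructus raised 1 and lowered 2 (median -0.39), against 22.3% and 23.6% of all genes tested.

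Several named genes moved with both extracts but further with Schisandrae Fructus. PLAUR, the urokinase receptor, had 139.7, 154 and 162 CPM at high and 58.0, 57.4 and 58.5 CPM at low Schisandrae Fructus. Yijin-tang gave 73.3, 69.9 and 70.2 CPM at high and 60.05, 57.9 and 55.2 CPM at low dose. It rose by 1.39 ± 0.067 with Schisandrae Fructus and 0.30 ± 0.068 with Yijin-tang, and the difference was 1.09 ± 0.095 (adjusted p = 6.06e-12). F3, tissue factor, which starts clotting, rose by 1.20 ± 0.059 and 0.48 ± 0.059. The membrane collagenase MMP14 rose with Schisandrae Fructus alone (0.91 ± 0.050; Yijin-tang 0.011 ± 0.050, not called). ITGB8, an integrin that activates latent TGF-beta, had 5.15, 5.28 and 4.93 CPM at high and 39.4, 40.7 and 42.4 CPM at low Schisandrae Fructus. It had 27.6, 25.3 and 26.4 CPM at high and 42.6, 40.1 and 37.8 CPM at low Yijin-tang, fell with both, and differed by -2.39 ± 0.15 (adjusted p = 2.96e-16).

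KRTAP2-3, a keratin-associated protein gene, rose by 3.45 ± 0.14 with Schisandrae Fructus and 0.73 ± 0.16 with Yijin-tang. The Yijin-tang call was lost without Yijin-tang high-dose replicate 1 (0.511, adjusted p = 0.0528). It has close copies in its gene cluster, so its reads may be shared with them. VAV3, a guanine nucleotide exchange factor, and the noncoding gene LINC01963 fell further with Schisandrae Fructus (differences -2.06 ± 0.16 and -1.98 ± 0.17). The Yijin-tang call of LINC01963 was lost without Yijin-tang high-dose replicate 3 (-0.366). INHBA, an activin subunit, rose with both, by 1.67 ± 0.065 with Schisandrae Fructus and 1.18 ± 0.065 with Yijin-tang. AKR1C1, an NRF2 target with near-identical relatives, rose by 1.69 ± 0.064 and 0.40 ± 0.066, and the immediate early genes JUN and DUSP1 rose further with Schisandrae Fructus, with differences of 0.58 ± 0.072 and 0.42 ± 0.099.

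Outside the cytokine and interferon lists, the rises with Yijin-tang alone included CLDN1, a tight-junction protein, at 3.71, 3.20 and 3.38 CPM at high and 4.65, 3.61 and 3.96 CPM at low Schisandrae Fructus. It had 9.52, 10.4 and 9.64 CPM at high and 4.99, 3.54 and 4.02 CPM at low Yijin-tang, and stood apart there (1.252 ± 0.13; Schisandrae Fructus -0.25 ± 0.15, not called; difference -1.50 ± 0.20, adjusted p = 1.23e-07). C1QTNF1, a secreted relative of complement C1q, rose by 1.11 ± 0.068, and the kinase NUAK2 by 0.63 ± 0.075. Falls with Yijin-tang alone were smaller. OLFML2B, an extracellular olfactomedin-domain protein, had 8.15, 7.01 and 8.53 CPM at high and 13.6, 12.7 and 11.4 CPM at low Yijin-tang (-0.66 ± 0.093; Schisandrae Fructus 0.090 ± 0.086, not called). SH3TC2 (-0.56 ± 0.14) and the noncoding gene MEG9 (-0.65 ± 0.11) fell too.

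Calls of 2 other genes of this class moved when 1 library was left out. The matricellular protein gene CCN2 fell by 0.37 on the log2 scale, a call lost without Yijin-tang high-dose replicate 2, high-dose replicate 3 or low-dose replicate 1 (-0.316 to -0.336). It was called as a rise with Schisandrae Fructus in a fit of only the 12 libraries (0.204), without the filter on low counts (0.214) and with the replicate block (0.199), which makes it opposite there. The adrenergic receptor ADRA1D (-0.41 ± 0.10) lost its Yijin-tang call without high-dose replicate 3 (-0.305), and was called with Schisandrae Fructus without Schisandrae Fructus low-dose replicate 3 (0.271).

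Among opposite genes, the largest difference of the named genes belonged to LRRN3, a leucine-rich repeat membrane protein, at 0.876, 0.936 and 0.758 CPM at high and 4.46, 4.25 and 4.44 CPM at low Schisandrae Fructus. It had 6.62, 7.12 and 6.67 CPM at high and 4.57, 4.75 and 3.90 CPM at low Yijin-tang. The high-dose libraries lay below their low-dose group with Schisandrae Fructus (-2.35 ± 0.12) and above it with Yijin-tang (0.63 ± 0.089), and the difference was -2.97 ± 0.15 (adjusted p = 1.16e-19). KYNU, kynureninase of tryptophan breakdown, was at -0.70 ± 0.17 and 1.27 ± 0.16. COL1A2, a chain of type I collagen, went the other way, at 1768, 1785 and 1825 CPM at high and 1579, 1584 and 1560 CPM at low Schisandrae Fructus. It had 1371, 1346 and 1352 CPM at high and 1659, 1601 and 1579 CPM at low Yijin-tang, a rise of 0.19 ± 0.035 and a fall (-0.25 ± 0.035). SQSTM1, the autophagy receptor p62, fell with Schisandrae Fructus (-0.49 ± 0.053); its rise with Yijin-tang (0.18 ± 0.053, adjusted p = 0.0263) was lost when any 1 of the 6 Yijin-tang libraries was left out (0.177 to 0.185).

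For 4 further genes that rose with Schisandrae Fructus and fell with Yijin-tang, 1 or both calls were lost without single libraries. DEPP1, a regulator of autophagy, was at 0.35 ± 0.12 with Schisandrae Fructus and -0.66 ± 0.13 with Yijin-tang, and the first call was lost without Schisandrae Fructus low-dose replicate 2 (0.266) or 3 (0.297). The metalloprotease ADAM19 was at 0.62 ± 0.062 and -0.21 ± 0.062, and the second call was lost without Yijin-tang high-dose replicate 2 or 3 or low-dose replicate 1 or 2 (-0.165 to -0.219). The potassium channel KCNN4 was at 0.45 ± 0.086 and -0.33 ± 0.092, and the second call was lost without Yijin-tang high-dose replicate 2 or 3 or low-dose replicate 1 (-0.246 to -0.334). ADD2, beta-adducin, was at 0.35 ± 0.13 and -0.44 ± 0.14. Its Yijin-tang call was lost without any 1 of the 6 Yijin-tang libraries (-0.417 to -0.484), and also with the replicate block (-0.442), with DESeq2 (-0.445) and without the filter on low counts (-0.435). Without that filter (0.361) it lost its Schisandrae Fructus call as well. That call was also lost without Schisandrae Fructus high-dose replicate 2 (0.221) or low-dose replicate 1 (0.319) or 3 (0.311). The difference itself was called for all 4 (adjusted p = 2.77e-05 for DEPP1, 8.92e-10 for ADAM19, 5.75e-06 for KCNN4 and 0.002 for ADD2).

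Genes that answered both extracts alike included the Wnt-binding SFRP2, at 22.9, 21.9 and 27.0 CPM at high and 48.0, 48.9 and 54.7 CPM at low Schisandrae Fructus. It had 28.2, 26.3 and 23.3 CPM at high and 50.7, 51.0 and 47.6 CPM at low Yijin-tang. Both high-dose groups lay below their low-dose groups without overlap, which was a condition of naming. The 95% interval of the difference was -0.38 to 0.11. PLXDC1 (-1.03 ± 0.11 and -0.82 ± 0.11), the aggrecan-degrading ADAMTS15 (-0.99 ± 0.081 and -0.71 ± 0.080), the immediate early factor EGR3 (-0.83 ± 0.13 and -0.65 ± 0.12) and the Wnt antagonist DACT1 (-0.64 ± 0.061 and -0.57 ± 0.061) fell alike. The difference of ADAMTS15 was called without Yijin-tang high-dose replicate 1 (-0.329), with the replicate block (-0.283), with upper quartile scaling (-0.292) and in a fit of only the 12 libraries (-0.284). GSAP, the gamma-secretase activating protein, rose alike, at 10.3, 10.7 and 9.76 CPM at high and 5.16, 4.85 and 5.76 CPM at low Schisandrae Fructus. It had 8.69, 9.21 and 10.1 CPM at high and 4.90, 5.03 and 4.84 CPM at low Yijin-tang, again without overlap, with a 95% interval of the difference of -0.24 to 0.33. SQOR, which oxidises sulfide in mitochondria (0.75 ± 0.11 and 0.97 ± 0.12), MTSS1 (0.84 ± 0.10 and 0.73 ± 0.11), PEG3 (0.71 ± 0.13 and 0.76 ± 0.13) and the metallothionein MT2A (0.57 ± 0.10 and 0.51 ± 0.10) rose alike.

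The cholesterol genes had like medians with both extracts. Of 26 tested, 5 had a higher and 5 a lower response to Schisandrae Fructus (median difference 0.0029). Over all genes tested these shares were 11.3% and 12.6%. On its own, Schisandrae Fructus raised 22.3% and lowered 23.6% of all genes tested. Schisandrae Fructus raised 3 and lowered 13 (median -0.20), and Yijin-tang raised none and lowered 11 (median -0.20). Yijin-tang raised 3.61% and lowered 3.39% of all genes tested. Both extracts lowered 9 of the list, of which 6 were alike, INSIG1, STARD4, SREBF2 and HMGCS1 among them. The 11 calls with Yijin-tang were 6 without its high-dose replicate 2 or 3 or low-dose replicate 1, and 7 without low-dose replicate 2. SREBF2 was among those lost, and it lost its Schisandrae Fructus call too, without high-dose replicate 3 or low-dose replicate 2 or 3 (-0.129 to -0.146) or without the filter on low counts (-0.152). HMGCS1, an early enzyme of the pathway, had 31.3, 28.5 and 31.9 CPM at high and 36.4, 36.4 and 37.7 CPM at low Schisandrae Fructus. It had 29.6, 30.1 and 28.3 CPM at high and 37.9, 39.5 and 36.3 CPM at low Yijin-tang, and the 95% interval of the difference was -0.042 to 0.25. LSS, which closes the sterol rings, fell further with Schisandrae Fructus (difference -0.29 ± 0.060). SQLE, FDFT1 and MVD, enzymes of the middle of the pathway, rose with Schisandrae Fructus alone (0.27 ± 0.052, 0.33 ± 0.052 and 0.45 ± 0.072).

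Of 34 NRF2 targets 10 were higher and 7 lower with Schisandrae Fructus, and HMOX1, haem oxygenase, rose with it alone (0.36 ± 0.060; Yijin-tang 0.078 ± 0.061, not called; difference adjusted p = 0.0142). Of 41 collagen and matrix genes 7 were higher and 9 lower, and of 26 TGF-beta and BMP readout genes 4 and 8. The shares over all genes tested were 11.3% higher and 12.6% lower. A count near these shares says nothing particular about its list. Of 28 hypoxia targets 11 were higher and 4 lower, led by NDRG1 (difference 1.10 ± 0.074), and of 30 ribosome biogenesis genes 11 and 1 (median difference 0.227). Schisandrae Fructus raised 19 and lowered 4 of these 30, against 22.3% and 23.6% of all genes tested. Yijin-tang raised 2 of them, against 3.61%. Of 25 integrin and focal adhesion genes 8 were higher and 1 lower, and of 22 matrix-degrading protease genes 4 and 4. The difference was called in none of 13 mitochondrially encoded genes, 5 of 47 nuclear respiratory chain genes and 1 of 43 cytosolic ribosomal protein genes. On its own, Schisandrae Fructus raised 4 and lowered 13 of the 47, against 22.3% and 23.6% of all genes tested. It raised 2 and lowered none of the 43 and moved none of the 13, and Yijin-tang was called in none of these lists. CYP1A1, the readout of the aryl hydrocarbon receptor, stayed at 1.33 to 1.65 CPM at high and 1.09 to 1.60 CPM at low Schisandrae Fructus. It lay at 0.813 to 0.91 CPM at high and 0.751 to 0.992 CPM at low Yijin-tang, with a difference of 0.13 ± 0.29 that was not called.

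Markers of cell types moved with the extracts too. Of 8 astroglial and neural stem markers tested, 3 were higher and 3 lower with Schisandrae Fructus, and their summed level was 7000 to 7180 CPM at high and 7380 to 7510 CPM at low Schisandrae Fructus. It was 6960 to 7260 CPM at high and 7340 to 7440 CPM at low Yijin-tang. VIM (4220 to 5110 CPM) and CD44 (1930 to 2740 CPM) made up most of this sum. SLC1A3, a glial glutamate transporter, had 10.7, 11.6 and 12.3 CPM at high and 28.1, 26.1 and 28.9 CPM at low Schisandrae Fructus. It had 22.4, 20.9 and 20.2 CPM at high and 27.5, 27.1 and 25.6 CPM at low Yijin-tang, and fell with both, further with Schisandrae Fructus (difference -0.92 ± 0.11, adjusted p = 1.76e-08). CD44 fell with Schisandrae Fructus alone (-0.43 ± 0.049). Of 9 neuronal markers 4 were lower with Schisandrae Fructus and none higher, SNAP25 by -1.28 ± 0.097 and MAP2 by -1.27 ± 0.23, with a summed level of 97.7 to 106 CPM at high and 165 to 167 CPM at low Schisandrae Fructus. The same sum was 132 to 142 CPM at high and 163 to 173 CPM at low Yijin-tang. Of 11 mesenchymal markers 1 was higher and 4 lower, and what part these markers had in the other results was not tested. Among all genes tested, 11.3% were higher and 12.6% lower.

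At the medium dose, which is 5 times the low dose in both extracts, 2 genes (0.0112%) differed between the extracts. The count was 1 without Yijin-tang medium-dose or low-dose replicate 1, and 0 without Yijin-tang medium-dose or low-dose replicate 3, Schisandrae Fructus medium-dose replicate 2 or Schisandrae Fructus low-dose replicate 1. THBD was higher with Schisandrae Fructus (0.59 ± 0.10, adjusted p = 0.0105; 0.00560% of genes were called in that direction), at 10.2, 11.9 and 10.3 CPM at 62 µg/mL Schisandrae Fructus and 6.70, 6.57 and 5.79 CPM at 100 µg/mL Yijin-tang. IL11 was lower (-0.51 ± 0.090, adjusted p = 0.0117), at 72.0, 61.2 and 67.2 CPM with Schisandrae Fructus and 113, 107 and 111 CPM with Yijin-tang. Between the low doses themselves edgeR called 0 of 17851 genes, with 543 at an unadjusted p below 0.05, and DESeq2 called 0 as well.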

How the data were processed

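The authors deposited a table of expected counts, 1 value per gene and library, for 60 libraries of SW1783 cells exposed for 24 h. The submitters' processing notes name FastQC 0.11.9, Trim Galore 0.6.5, the aligner STAR 2.7.3a with the build hg38, and RSEM 1.3.3, which gives such counts. Neither the annotation release nor the strand setting is given in the sources used, so overlapping and antisense genes may share reads. RSEM splits a read that matches several genes, and 10.86% of the expected counts as deposited were not whole; all were rounded to whole numbers.

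The 54 libraries of the 19 groups with replicates were fitted together with edgeR 4.0.16 (R 4.3.3, limma 3.58.1): filterByExpr kept 17851 of 60675 genes, counts were scaled by TMM, and contrasts were tested with the quasi-likelihood F test (35 residual degrees of freedom, median prior 6.31, median trended dispersion 0.00396). P-values were adjusted over all tested genes by the Benjamini-Hochberg method. DESeq2 1.42.0 was an alternative, as were other scaling, no filter, fits of only the libraries compared and leaving out each library. Levels are CPM (counts per mega-count of library) after TMM scaling, with 3 libraries per group. No pair of libraries of a group was a copy.

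The gene lists and the genes to be followed were chosen with earlier results of these data known. Genes were named by class: the 6 largest differences each way of genes moved by 1 extract alone, 4 opposite, 5 alike and 3 that differ in size, each way, with at least 5 CPM in a group and no overlap between doses, plus up to 4 members per list and HMOX1, HMGCS1, CDKN1A, CYP1A1, MKI67, TXNIP and CXCL8. Any other gene named was chosen after its values were seen. Promoters, 250 bases before the start site, came from RefSeq (GRCh38.p14), and 12011 of the genes tested had one. Those printed were picked among promoters with a match. Some genes of the lists are not reported here, in the text or in the figures.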

Additional observations from a re-analysis of the deposited data

Results flagged for a closer look

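The response to the high dose differed between the extracts by edgeR's test of the difference in 4269 of 17851 genes, and at the medium dose in 2. Among the genes picked by class, by list or to be followed in any case, 121 had a called difference. Genes chosen after their values were seen are not in this count. Schisandrae Fructus and Yijin-tang moved 106 genes in opposite directions (72 to 97 when 1 library was left out), each called on its own. For 8 of these, named as the largest each way, the difference of the log2 fold changes (Schisandrae Fructus minus Yijin-tang) was -2.97 for LRRN3, -2.10 for C3, -1.97 for KYNU, -1.90 for IFIT2, 0.78 for KCNN4, 0.79 for ADD2, 0.82 for ADAM19 and 1.01 for DEPP1. The first 4 kept both their calls in every fit that left out 1 library, and the other 4 did not. Groups of 3 libraries are too small for a check of single libraries that stand apart.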

How the results depend on the processing

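No result named here changed direction under any alternative. The difference at the high dose was called in 4269 genes, and in 3788 to 4239 when 1 library was left out. Comparing the high doses without the low doses called 6997 genes. That contrast also holds the library sets and rests on fewer groups, and why its count was larger was not tested. Yijin-tang calls were 837 to 1022 when 1 library was left out, against 1249 with all. In the same fits the 910 genes moved the same way by both were 612 to 910, and the 371 alike genes 250 to 371. The 106 opposite genes were 72 to 97. Genes called for Schisandrae Fructus alone were 3026 to 3431, against 3458 with all libraries, and for Yijin-tang alone 88 to 137, against 122. Leaving out a library also removes residual degrees of freedom. At the medium dose the 2 calls were 96 without the filter on low counts, 1 when the fit held no other libraries, 4 with DESeq2 and 0 to 2 when 1 library was left out. Between the low doses the 0 calls were 71 without the filter and 6 with the replicate block; the cause was not tested. The 371 alike genes were 247 with a narrower likeness margin. Counts within gene lists, an alternative chosen after seeing the data, ranged over the fits that left out 1 library from 5 to 9 for the MondoA difference. For the Yijin-tang contrast they ranged from 12 to 17 (interferon), 3 to 7 (ATF4), 1 to 3 (ER chaperones), 2 to 7 (mitosis) and 6 to 9 (cholesterol). The 3 heat shock calls with Yijin-tang were 1 without the filter.

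Same-numbered libraries of the high- and low-dose groups of an extract did not deviate together (correlations of -0.0526 to 0.0154). This check left out the medium doses and the other extracts, so it cannot exclude a pairing by number. With the replicate block the high-dose difference had 4486 calls, Schisandrae Fructus 8346, Yijin-tang 1353 and the medium-dose difference 3. With 3 libraries per group, a p that missed the threshold does not show that a gene was unmoved.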
